A study of Homo sapiens with 16 samples.

Results

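The kinases that phosphorylate serine/arginine-rich (SR) splicing factors were examined at the RNA level in human 293T cells, an embryonic kidney line, after siRNA against the histone methyltransferase SETD2 or the RNA-binding protein hnRNP L. The genes were taken by symbol from the deposited gene table: CLK1, CLK2, CLK3, CLK4, SRPK1, SRPK2 and PRPF4B, which are 7 of the 58884 genes listed there. All 7 passed a filter of a mean of at least 0.5 TPM, a unit of transcript abundance scaled for transcript length and library total, as did 16300 genes in all. The libraries came from the same line, each labelled WT (wild type), treated with an siRNA for 72 h. It was a scramble siRNA (libraries numbered 1 and 2), SETD2 siRNA (numbered 2 and 3) or hnRNP L siRNA (numbered 1 and 2). All 3 groups had thus received an siRNA, and each held 2 RNA-seq libraries. The knockdowns were transient and incomplete, in 1 transformed line. The study describes its replicates as independent biological ones, and what was repeated for each is not given in the labels. The series also holds chromatin immunoprecipitation samples, which were not used here.

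SR proteins recognise exonic sequences and recruit the splicing machinery, and the phosphorylation of their serine/arginine domains sets where in the cell they are and whether they act. SRPK1 and SRPK2 phosphorylate them mainly in the cytoplasm, after which a transportin carries them into the nucleus. The CLK kinases work inside the nucleus, where they further phosphorylate SR proteins and release them from nuclear speckles. PRPF4B, also called PRP4 kinase, acts at the spliceosome, where it phosphorylates PRPF6 and PRPF31 of the tri-snRNP. SETD2 places trimethylation on lysine 36 of histone H3 along transcribed genes, and hnRNP L binds CA-rich RNA and regulates splicing and transcript levels. CLK1 is also known to be regulated through its own splicing, which gene-level values cannot show.

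Since hnRNP L binds CA repeats, the gene spans were searched on the sense strand for runs of at least 6 CA units (the motif CACACACACACA or longer). In the GENCODE 44 annotation on hg38, 36.8% of 16207 tested genes that could be matched held such a run within the gene span and 4.68% held one in an exon. None was found in CLK1, CLK2, CLK3 or CLK4. Of genes within 1.5-fold of the same length, 13.5%, 17.8%, 47.3% and 30.8% held one, respectively, so most genes of these lengths held none. SRPK1 held 1, PRPF4B held 2 and SRPK2 held 8, while 69.9%, 44.7% and 98.5% of genes of like length held at least 1. SRPK2, which spans 288605 bp, lay beside genes of like length with a median of 5. All of these runs were intronic. The longest of each gene and the SRPK2 run nearest to an exon are printed to show the letters on which this description rests, 5′ to 3′ on the gene's strand with 25 flanking bases on each side in lower case, the CA run being in capitals.
PRPF4B, intron 7, 22 units, 655 bp from the nearest exon of the canonical transcript, chr6:4047878-4047971, plus strand: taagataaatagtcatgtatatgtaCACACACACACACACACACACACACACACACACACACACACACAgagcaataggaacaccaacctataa
SRPK1, intron 2, 16 units, 4423 bp from an exon, chr6:35895411-35895492, minus strand: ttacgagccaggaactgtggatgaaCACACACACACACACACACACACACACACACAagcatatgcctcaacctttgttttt
SRPK2, intron 2, 25 units, 64631 bp from an exon, chr7:105323943-105324042, minus strand: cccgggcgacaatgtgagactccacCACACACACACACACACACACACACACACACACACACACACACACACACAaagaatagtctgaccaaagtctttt
SRPK2, intron 4, 18 units, 376 bp from an exon, chr7:105168721-105168806, minus strand: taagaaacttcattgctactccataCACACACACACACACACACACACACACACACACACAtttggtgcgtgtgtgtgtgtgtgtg
A run of these letters is not a binding site, and whether hnRNP L contacts any of them was not tested. Shorter or interrupted CA stretches were not searched for, so a gene without a run may still hold CA-rich sequence.

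The genes lie at chr2:200853009-200864691 (CLK1, minus strand), chr1:155262868-155278491 (CLK2, minus), chr15:74598500-74645414 (CLK3, plus), chr5:178602664-178630615 (CLK4, minus), chr6:35832966-35921342 (SRPK1, minus), chr7:105110704-105399308 (SRPK2, minus) and chr6:4021267-4064983 (PRPF4B, plus). The annotation lists transcripts other than protein-coding ones at all 7 genes. Of 14 CLK1 transcripts it classes 3 as protein coding, 8 as retained intron and 2 as targets of nonsense-mediated decay. Of 13 CLK4 transcripts it classes 2 as coding, 7 as retained intron and 3 as decay targets. For CLK3 12 of 27 are coding, 8 retained intron and 3 decay targets, and for PRPF4B 1 of 9 is coding. Coding transcripts number 3 of 7 for CLK2, 6 of 13 for SRPK1 and 7 of 15 for SRPK2. The TPM of a gene add over its annotated transcripts, so a level of a kinase's RNA is not a level of its coding mRNA. CLK2, CLK3, SRPK1, SRPK2 and PRPF4B overlap genes on the opposite strand (HCN3, EDC3, LHFPL5, KMT2E and FAM217A, among others), and whether the counting used strand is not given in the sources used here. CLK1 overlaps a Y RNA gene and CLK4 the small RNA pseudogene RN7SKP70 on the same strand, which stranded counting would not separate. Little sequence was shared with other genes: at a read length of 75 bases, the share of windows of the transcripts that occur in another gene was 0% for CLK1 and SRPK1 and at most 1.69%, for CLK2, whose copy CLK2P1 was listed at 0.24 to 0.57 TPM. For CLK4 it was 1.01%, shared with RN7SKP70. Of the other related copies, SRPK3 stood at 0.08 to 0.98 TPM and SRPK2P at 0 to 0.19 TPM, and CLK3P2 was listed at 0 throughout.

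The siRNA targets checked the labels. SETD2 stood at 13.38 and 11.70 TPM with scramble siRNA and at 4.24 and 4.91 TPM with SETD2 siRNA, which left 36.5%, and it was at 10.80 and 10.24 TPM with hnRNP L siRNA. HNRNPL stood at 341.04 and 457.16 TPM with scramble, at 394.73 and 413.42 TPM with SETD2 siRNA and at 25.04 and 28.81 TPM with hnRNP L siRNA, which left 6.75%. Both falls passed the test used throughout, limma on log2(TPM + 0.5) with Benjamini-Hochberg adjustment over the tested genes (log2 difference -1.36, adjusted p = 0.00603, and -3.85, adjusted p = 8.48e-06). The call of the SETD2 fall was lost in 3 of 17 other fits. These were the fits without scramble library 1, without SETD2 siRNA library 2 and with no filter on low values (adjusted p = 0.129). Its log2 difference stayed between -1.46 and -1.27 over the 17 fits. The markers of the line VIM (649.5 to 940.78 TPM), KRT8 (31.12 to 43.43), KRT18 (59.68 to 77.24) and NEFM (183.74 to 454.39) were present. PAX2, also chosen as a marker of the line, was low at 1.65 to 2.79 TPM. Of the markers of other cells, the blood markers PTPRC (0) and CD3E (0 to 0.03), the liver marker ALB (0.02 to 0.40) and the fibroblast marker DCN (0 to 0.09) were near 0, and COL3A1 was low at 0.97 to 1.22 TPM. TPM keep no read depth. The study reports the read pairs of each library, but no counts per gene were used here, so counting error was not estimated. Between 24225 and 24987 genes were above 0 per library. Mitochondrially encoded genes took 17.5% of TPM in scramble library 1 and 6.70% to 10.9% in the others, and the TPM of a library sum to a fixed total.

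TPM are scaled by transcript length, so levels may be compared between the kinases. CLK3 (mean over the 6 libraries 90.35 TPM), CLK2 (88.95) and SRPK1 (85.52) formed the upper tier and stood above 91.2%, 91.0% and 90.6% of tested genes. Their ranges overlapped, so their order among themselves was not resolved. CLK1 (32.41), PRPF4B (27.65), SRPK2 (21.11) and CLK4 (16.23) formed a lower tier, above 76.5%, 73.5%, 67.9% and 62.1% of tested genes. The highest CLK1 library (40.51 TPM) was below the lowest SRPK1 library (71.01 TPM), so the tiers did not meet. CLK1 overlapped PRPF4B and SRPK2 overlapped CLK4, whereas PRPF4B (lowest 25.73) only just cleared SRPK2 (highest 25.65). Between its lowest and highest library each kinase varied little, from 1.18-fold for PRPF4B to 1.58-fold for CLK4. CLK2 and CLK3 together made up 79.3% to 80.7% of the summed CLK TPM in the scramble and SETD2 siRNA libraries and 75.9% and 76.3% in the hnRNP L siRNA libraries.

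**Figure D1:**
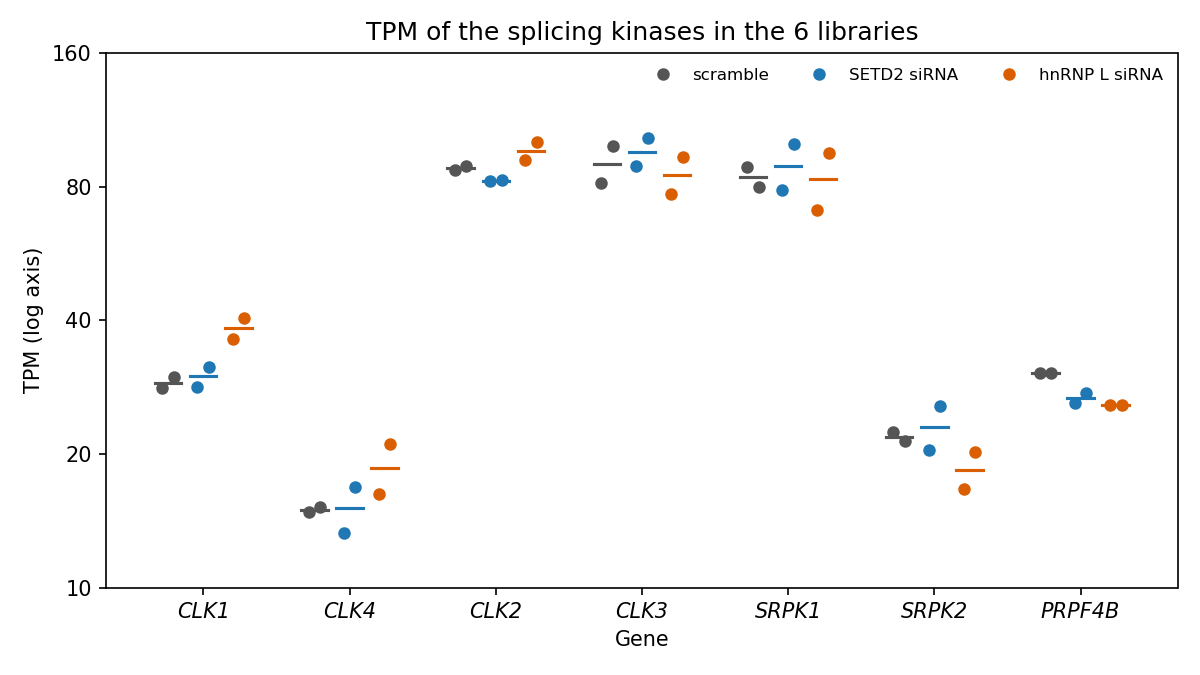
TPM on a log axis for each kinase, with 1 point per library and a bar at the mean of the 2 libraries, coloured by siRNA. CLK2, CLK3 and SRPK1 sit between 71.01 and 102.73 TPM in every library and the other 4 kinases between 13.29 and 40.51 TPM, and the hnRNP L siRNA points of CLK1 (36.25 and 40.51 TPM) lie above its other points.

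After SETD2 siRNA no kinase passed the test: 0 of 7 were called by limma (adjusted p under 0.05 and fold change above 1.5), against 0.104% of all tested genes (17 genes), and the same held with no fold threshold (also 0.104%). At an unadjusted p under 0.05 the count was also 0 of 7, against 13.1% of tested genes. The point differences ran from 0.880-fold for PRPF4B to 1.07-fold for CLK3, on the scale of log2(TPM + 0.5). CLK4 was closest to 1.00-fold, with a 95% interval of 0.781 to 1.28. The intervals leave room for moderate differences in either direction, the widest being those of SRPK1 (0.816 to 1.36) and CLK4.

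In 2 of 7 kinases the SETD2 siRNA libraries did not overlap the scramble libraries, and both were lower, where 43.5% of tested genes did not overlap. CLK2, one of the more abundant nuclear kinases, stood at 87.37 and 88.97 TPM with scramble and at 82.33 and 82.65 TPM with SETD2 siRNA. Its log2 difference was -0.10 (SE 0.0947, adjusted p = 0.692). PRPF4B stood at 30.44 and 30.47 TPM with scramble and at 26.11 and 27.38 TPM with SETD2 siRNA, a log2 difference of -0.18 (SE 0.0973, adjusted p = 0.445). Neither difference passed the test. With 2 libraries against 2, an exact permutation test cannot give a two-sided p below 0.333.

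After hnRNP L siRNA, CLK1 RNA was higher and was the 1 kinase with an adjusted p under 0.05. It stood at 28.16 and 29.75 TPM with scramble (mean 28.95 ± 1.12, SD, n = 2), at 28.35 and 31.44 TPM with SETD2 siRNA (29.9 ± 2.18, n = 2) and at 36.25 and 40.51 TPM with hnRNP L siRNA (38.38 ± 3.01, n = 2). Both hnRNP L siRNA libraries were above the other 4. The difference from scramble was 1.32-fold (95% interval 1.11 to 1.57), or 0.40 on the log2 scale (SE 0.109), with a limma adjusted p of 0.049985. This lies at the threshold and under the fold change of 1.5, so CLK1 was not called by the full rule. By that rule 0 of 7 kinases were called, where 6.76% of tested genes were (1102 genes). With no fold threshold 1 of 7 passed, where 11.2% of tested genes did. At an unadjusted p under 0.05 the count was 2 of 7 (CLK1 and PRPF4B), where 28.4% of tested genes were.

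The direction of the CLK1 difference held under all 18 other fits that used the fold threshold, with log2 differences of 0.32 to 0.497. Both hnRNP L siRNA libraries were above both scramble libraries, so fits that kept the scaling could not turn this direction. Only the changes of scaling could have done so. The adjusted p of CLK1 ranged from 0.0146 to 0.271 and was under 0.05 in 4 of the 18 fits. These were median-ratio scaling (0.0146), quantile normalization (0.0174), coding and lncRNA genes only (0.0291) and a mean of at least 1 TPM (0.0433). The fits that left out a single library were not among these. The adjusted p of the main fit lay at the threshold, so the loss of any library could move it above 0.05. With the label numbers as a replicate block the adjusted p was 0.0902, and with the numbers crossed it was 0.0643.

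The other CLK kinases did not pass the test. CLK4, a close relative of CLK1, stood at 14.80 and 15.17 TPM with scramble, at 13.29 and 16.87 TPM with SETD2 siRNA and at 16.22 and 21.03 TPM with hnRNP L siRNA. Its hnRNP L siRNA libraries did not overlap the scramble libraries but the spread between them was wider than the gap to those. The difference from scramble was 1.23-fold (95% interval 0.958 to 1.57, adjusted p = 0.257). CLK2 was at 91.78 and 100.60 TPM with hnRNP L siRNA, above all other libraries, at 1.09-fold of scramble (0.938 to 1.26, adjusted p = 0.431). CLK3 was at 81.40 and 98.69 TPM with scramble, 88.94 and 102.73 TPM with SETD2 siRNA and 76.99 and 93.37 TPM with hnRNP L siRNA. Its libraries overlapped in every comparison, and its difference from scramble was 0.946-fold (0.761 to 1.18, adjusted p = 0.745).

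Among the SRPK kinases, SRPK1 was the more abundant and the values of its groups overlapped throughout. It stood at 88.40 and 79.96 TPM with scramble, 78.55 and 99.76 TPM with SETD2 siRNA and 71.01 and 95.47 TPM with hnRNP L siRNA, so the 2 libraries of either knockdown spanned the scramble values. Its difference after hnRNP L siRNA was 0.98-fold (95% interval 0.759 to 1.26, adjusted p = 0.927). SRPK2 stood at 22.43 and 21.35 TPM with scramble, 20.36 and 25.65 TPM with SETD2 siRNA and 16.64 and 20.24 TPM with hnRNP L siRNA. Both hnRNP L siRNA values were below the other 4, the higher of them only just. The difference from scramble was 0.842-fold (0.672 to 1.06, adjusted p = 0.295).

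PRPF4B, the spliceosomal kinase, stood at 25.73 and 25.79 TPM with hnRNP L siRNA, below the 4 other libraries and close to the SETD2 siRNA values of 26.11 and 27.38 TPM. Its difference from scramble was 0.848-fold (95% interval 0.728 to 0.989), -0.24 on the log2 scale, with an adjusted p of 0.151. Both knockdowns are set against the same scramble libraries, so their PRPF4B differences of 0.880-fold and 0.848-fold share those values. Of the 7 kinases, 5 had hnRNP L siRNA libraries that did not overlap the scramble libraries (CLK1, CLK2 and CLK4 higher, SRPK2 and PRPF4B lower), where 56.6% of tested genes did not overlap. The median log2 difference of the 7 was -0.0299, beside -0.0843 over all tested genes.

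**Figure D2:**
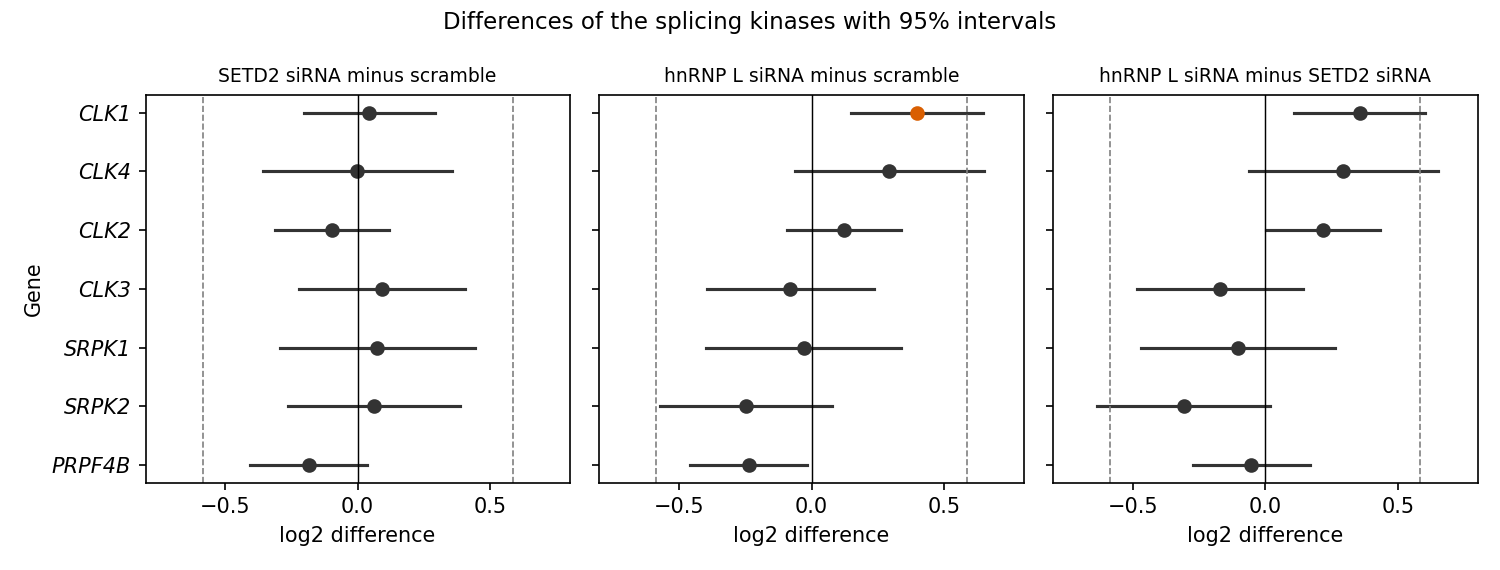
Log2 differences of the 7 kinases on the log2(TPM + 0.5) scale in the 3 comparisons, with 95% intervals from limma as bars. The CLK1 interval lies to the right of 0 in the comparison of hnRNP L siRNA with scramble (0.40) and with SETD2 siRNA (0.35). The intervals of PRPF4B against scramble after hnRNP L siRNA (-0.24) and of CLK2 between the knockdowns (0.22) also stop just short of 0.

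The direct comparison of the knockdowns tested whether their effects differed. None of the 7 kinases was called, where 6.84% of tested genes were. In the main fit none had an adjusted p under 0.05, where 10.8% did. At an unadjusted p under 0.05 the count was 2 of 7 (CLK1 and CLK2), where 28.5% of tested genes were. CLK1 was 1.28-fold higher with hnRNP L siRNA than with SETD2 siRNA in point value (95% interval 1.08 to 1.52, adjusted p = 0.0718), and CLK2 1.16-fold (1.00 to 1.35, adjusted p = 0.169). SRPK2 was at 0.807-fold (0.644 to 1.01, adjusted p = 0.197). CLK4 was at 1.23-fold (adjusted p = 0.257), and CLK3 at 0.888-fold, SRPK1 at 0.931-fold and PRPF4B at 0.964-fold had adjusted p of 0.453 or more. In 4 of 7 kinases the libraries did not overlap between the knockdowns, where 59.8% of tested genes did not. The adjusted p of CLK1 and CLK2 depended on the processing. With median-ratio scaling they were 0.0172 and 0.0383, and with quantile normalization 0.0189 and 0.0475. With coding and lncRNA genes only, that of CLK1 was 0.0487 and that of CLK2 was 0.162. All of these differences stayed under the fold threshold.

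Seen over all 6 libraries, the hnRNP L siRNA pair lay outside the range of the other 4 libraries for 4 kinases: above it for CLK1 and CLK2 and below it for SRPK2 and PRPF4B. Of tested genes 37.6% did so, 10.7% above and 26.8% below. The SETD2 siRNA pair lay outside for CLK2 alone (below, where 21.8% of tested genes lay outside) and the scramble pair for PRPF4B alone (above, where 20.8% did).

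**Figure D3:**
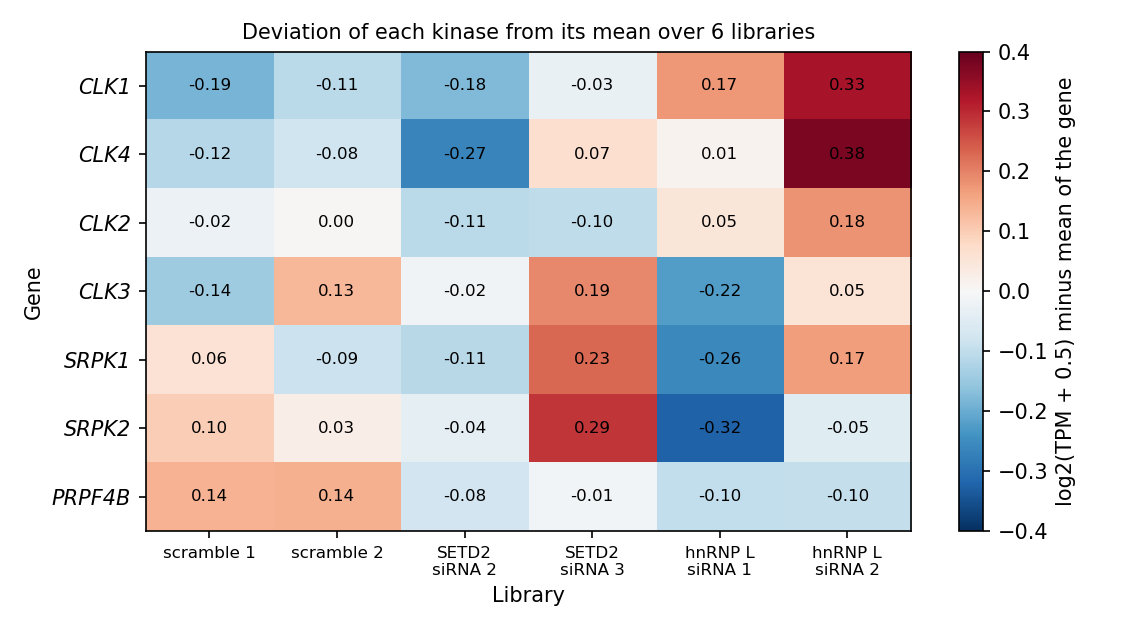
Deviation of log2(TPM + 0.5) from the mean of each kinase over the 6 libraries, by library. The 2 hnRNP L siRNA columns are positive for CLK1, CLK2 and CLK4 and negative for SRPK2 and PRPF4B, and the CLK4 value of library 1 is near 0 (0.0133). In the SETD2 and hnRNP L siRNA groups the higher-numbered library exceeds the lower-numbered one for all 7 kinases. For CLK2 with SETD2 siRNA and PRPF4B with hnRNP L siRNA this difference is close to 0.

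The libraries of each knockdown differed in a shared direction, which bears on the spread above. SETD2 siRNA library 3 was above library 2 for 7 of 7 kinases (median log2 difference 0.207), where 65.5% of tested genes were higher (median 0.0782). Library 2 of hnRNP L siRNA was above library 1 for 7 of 7 (median 0.275), where 66.0% of tested genes were higher (median 0.0740). These counts include differences close to 0, those of CLK2 with SETD2 siRNA (0.00556) and PRPF4B with hnRNP L siRNA (0.0033). Scramble library 2 was above library 1 for 5 of 7, where 58.9% of tested genes were higher. SRPK1 moved most in this sense among the higher-level kinases, at 1.27-fold between the SETD2 siRNA libraries and 1.34-fold between the hnRNP L siRNA libraries. The study lists more uniquely aligned read pairs for the higher-numbered library of each knockdown, and for library 1 of scramble. The source of the TPM differences within groups was not tested.

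Ratios of 2 kinases within a library leave out whatever scales both. Of the 21 pairs of kinases, the 2 hnRNP L siRNA libraries lay outside the range of the other 4 in 13, the scramble libraries in 4 and the SETD2 siRNA libraries in 1. Over all pairs of tested genes above 0 in every library these shares were 39.3%, 22.3% and 21.9%, and over pairs of genes with a mean of at least 5 TPM they were 42.7%, 25.2% and 23.9%. The pairs of kinases share genes and are not independent, and the ratios named here were chosen after their values were seen. The ratio of CLK1 to SRPK2, a nuclear to a mainly cytoplasmic SR protein kinase, was 1.26 and 1.39 with scramble, 1.39 and 1.23 with SETD2 siRNA and 2.18 and 2.00 with hnRNP L siRNA. CLK4 to SRPK2 was 0.66 and 0.711 with scramble, 0.653 and 0.658 with SETD2 siRNA and 0.975 and 1.04 with hnRNP L siRNA. For both ratios the hnRNP L siRNA values stood apart, by more than the spread within any group.

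CLK1 to PRPF4B was 0.925 and 0.976 with scramble, 1.09 and 1.15 with SETD2 siRNA and 1.41 and 1.57 with hnRNP L siRNA, so CLK1 was the lower of the pair only in the scramble libraries. CLK1 to CLK4 showed no such separation, at 1.90 and 1.96, 2.13 and 1.86, and 2.23 and 1.93 in the same order. CLK1 to CLK2 was 0.322 and 0.334, 0.344 and 0.38, and 0.395 and 0.403, so the hnRNP L siRNA values were the highest but lay close to SETD2 siRNA library 3. SRPK1 to SRPK2 was 3.94 and 3.75, 3.86 and 3.89, and 4.27 and 4.72. The summed TPM of the 4 CLK genes (211.7 to 255.5) and of the 2 SRPK genes (87.65 to 125.4) overlapped between the groups.

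**Figure D4:**
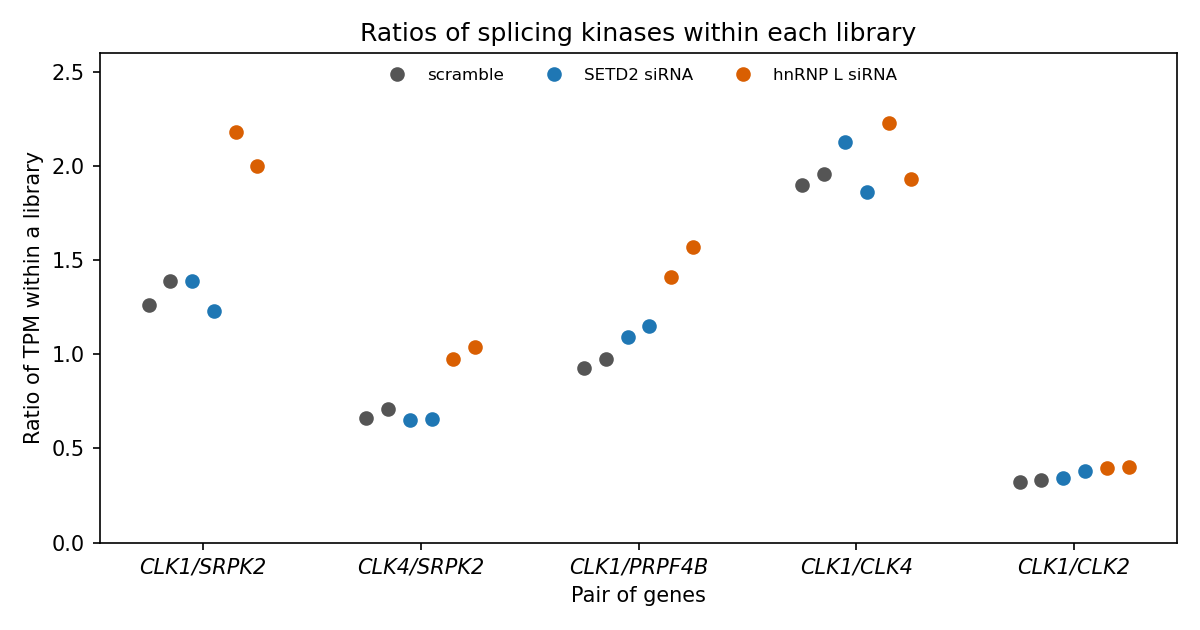
Ratio of the TPM of 2 kinases within each library, on a linear axis from 0, with 1 point per library coloured by siRNA. The hnRNP L siRNA points lie apart from the other 4 for CLK1/SRPK2 (2.18 and 2.00), CLK4/SRPK2 (0.975 and 1.04) and CLK1/PRPF4B (1.41 and 1.57), and overlap them for CLK1/CLK4.

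Across the 6 libraries, which share their groups and the differences described above, the kinases that moved most alike were CLK1 and CLK4 (Pearson r = 0.889 on the log2 scale), CLK1 and CLK2 (0.839) and SRPK1 and SRPK2 (0.804). CLK1 and PRPF4B ran opposite (-0.640). These are descriptions over 6 points in 3 groups, with no test. Of 10352 genes with a mean of at least 5 TPM, those most like CLK1 were TCOF1, a nucleolar factor for ribosomal RNA transcription (0.9938, 80.74 to 98.51 TPM), SOD2, the mitochondrial superoxide dismutase (0.9930, 83.73 to 125.75 TPM) and RAP1GDS1, an exchange factor for small GTPases (0.9928, 23.43 to 31.23 TPM), and 330 genes exceeded 0.9. Those most like SRPK1 were KIF2A, a microtubule-depolymerising kinesin (0.9913), the homeobox factor MEIS1 (0.9902) and TRIO, a guanine nucleotide exchange factor (0.9871), and 181 genes exceeded 0.9. Their shared pattern with SRPK1 included the difference between the libraries of each knockdown: KIF2A was at 34.80 and 46.67 TPM with SETD2 siRNA and at 31.65 and 44.24 TPM with hnRNP L siRNA.

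The substrates, relatives and partners of these kinases were read from 5 lists of 53 genes in all, of which 52 were tested (HIPK4, at 0 to 0.12 TPM, was not). After SETD2 siRNA 0 of 52 were called, where 0.104% of tested genes were. An unadjusted p under 0.05 was found for 6, where 13.1% of tested genes had one. After hnRNP L siRNA 2 of 52 were called, where 6.76% of tested genes were, and both fell, PPP1R10 and HIPK3. Here 11 had an unadjusted p under 0.05, where 28.4% of tested genes did. Between the knockdowns 3 of 52 were called, where 6.84% of tested genes were. All 3 were lower with hnRNP L siRNA: PPP1R10, HIPK3 and SRSF3. In this comparison 17 had an unadjusted p under 0.05, where 28.5% of tested genes did. With no fold threshold 8 of 52 passed between the knockdowns, where 10.8% of tested genes did, and all 8 were lower with hnRNP L siRNA. After hnRNP L siRNA against scramble 4 of 52 passed in this way, all lower, where 11.2% of tested genes did.

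PPP1R10, a nuclear targeting subunit of protein phosphatase 1 (an enzyme that dephosphorylates SR proteins), had the largest change in the lists. It stood at 25.31 and 22.99 TPM with scramble, 14.45 and 19.54 TPM with SETD2 siRNA and 11.25 and 7.96 TPM with hnRNP L siRNA, so the 3 groups did not overlap. It fell after hnRNP L siRNA, with a log2 difference from scramble of -1.30 (SE 0.186, adjusted p = 0.00599), and the difference after SETD2 siRNA was -0.51 and was not called. The adjusted p was 0.0656 without scramble library 1, 0.0567 without hnRNP L siRNA library 2 and 0.207 with no filter. The difference between the knockdowns was -0.80 (adjusted p = 0.031), and its call was lost in 12 of 17 other fits. These were the fits without any one of the 6 libraries (adjusted p 0.0623 to 0.209), with median-ratio scaling (0.0678), quantile normalization (0.0776) or rescaling without mitochondrially encoded genes (0.0665), with only the groups compared (0.0642), with no variance trend (0.0707) and with no filter on low values (0.441). The other 11 genes of the import, phosphatase and SRPK partner list were not called. Its median log2 difference after hnRNP L siRNA was 0.0453, and HSP90AB1, a cytosolic chaperone, stood at 1086 ± 59.4 TPM with scramble and 1351 ± 29.8 TPM with hnRNP L siRNA (SD, n = 2 each). DNAJC8, a co-chaperone found with the spliceosome, was at 260.6 ± 34.3 TPM with scramble and 320.0 ± 2.67 TPM with SETD2 siRNA.

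Of the DYRK and HIPK kinases, which belong with the CLK family to the CMGC group, HIPK3 was called. It was at 3.79 and 4.09 TPM with scramble, 4.16 and 5.26 TPM with SETD2 siRNA and 2.10 and 2.59 TPM with hnRNP L siRNA, a log2 difference from scramble of -0.65 (adjusted p = 0.0433) and from SETD2 siRNA of -0.87 (adjusted p = 0.0163). The call against scramble was lost in 13 of 19 other fits, among them those without any one library (adjusted p 0.0652 to 0.248). The call against SETD2 siRNA was lost in 5 of 17, without any library of those groups (adjusted p 0.0655 to 0.137) and with no filter (0.207). HIPK2 was at 5.63 and 4.36, 4.85 and 6.78, and 3.36 and 4.26 TPM in the same order and was not called. DYRK1B was at 8.66 and 9.61 TPM with scramble and 12.14 and 13.44 TPM with SETD2 siRNA (log2 difference 0.46, adjusted p = 0.215). Of the 8 tested genes of the list, 7 lay below scramble after hnRNP L siRNA, where 61.2% of all tested genes did, with a median log2 difference of -0.208, beside -0.0843 over all tested genes.

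Of the 14 SR protein genes, the substrates of these kinases, none was called against scramble in either knockdown. SRSF3, which also acts in mRNA export, was at 155.69 and 187.33 TPM with scramble, 196.89 and 186.32 TPM with SETD2 siRNA and 130.32 and 119.09 TPM with hnRNP L siRNA. Its log2 difference between the knockdowns was -0.62 (adjusted p = 0.0144), and from scramble -0.45 (adjusted p = 0.0393), under the fold threshold. The call between the knockdowns was lost in 8 of 17 other fits. Without any library of those groups the adjusted p was 0.098 to 0.116, and with no filter it was 0.220. Under all 3 other scalings the difference shrank below the fold threshold, to -0.51 (median-ratio), -0.53 (quantile) and -0.57 (without mitochondrially encoded genes), with adjusted p of 0.0342, 0.0186 and 0.0122. SRSF7 differed between the knockdowns at adjusted p = 0.0311 (log2 difference -0.40), again under the fold threshold. SRSF2 was at 156.5 ± 14.7 TPM with scramble and 124.1 ± 4.04 TPM with hnRNP L siRNA, and SRSF8, at 12.90 ± 1.70 and 10.59 ± 0.141 TPM, was far lower in level (SD, n = 2 each). With SETD2 siRNA the largest point differences were those of SRSF4 (0.22) and SRSF9 (0.22), neither of which passed. The median of the 14 was 0.0793 after SETD2 siRNA and -0.0419 after hnRNP L siRNA.

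Of the 10 speckle and SR-related genes and the 8 tri-snRNP genes, none was called in any comparison. SON, a large scaffold protein of nuclear speckles, was at 67.90 and 64.89 TPM with scramble, 62.87 and 74.47 TPM with SETD2 siRNA and 50.13 and 49.45 TPM with hnRNP L siRNA. Its differences of -0.41 from scramble (adjusted p = 0.0447) and -0.45 from SETD2 siRNA (adjusted p = 0.0332) passed on adjusted p and not on fold. U2AF2, the large subunit of the factor that reads the polypyrimidine tract, did so between the knockdowns (-0.53, adjusted p = 0.0176). U2AF1, its small subunit, was at 43.15 and 22.62 TPM in the scramble libraries, which differed more than the groups did. U2AF1 has a near-identical copy in the genome, and whether this affects its values was not tested. SNRNP70, a protein of the U1 particle, was at 365.4 ± 28.2 TPM with scramble and 440.0 ± 4.87 TPM with SETD2 siRNA (SD, n = 2 each) and was not called. PRPF6, a substrate of PRPF4B, was at 41.95 and 47.71, 52.71 and 53.53, and 38.11 and 38.33 TPM in the same order and differed between the knockdowns by -0.47 (adjusted p = 0.0242). PRPF3 differed by -0.37 (adjusted p = 0.049, close to the threshold). SON, U2AF2, PRPF6 and PRPF3 were not followed through the other fits, and neither was SRSF7. PRPF31, the other substrate named above, was at 83.57 ± 5.73, 99.66 ± 0.269 and 88.77 ± 4.70 TPM and had no adjusted p under 0.05 in any comparison.

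**Figure D5:**
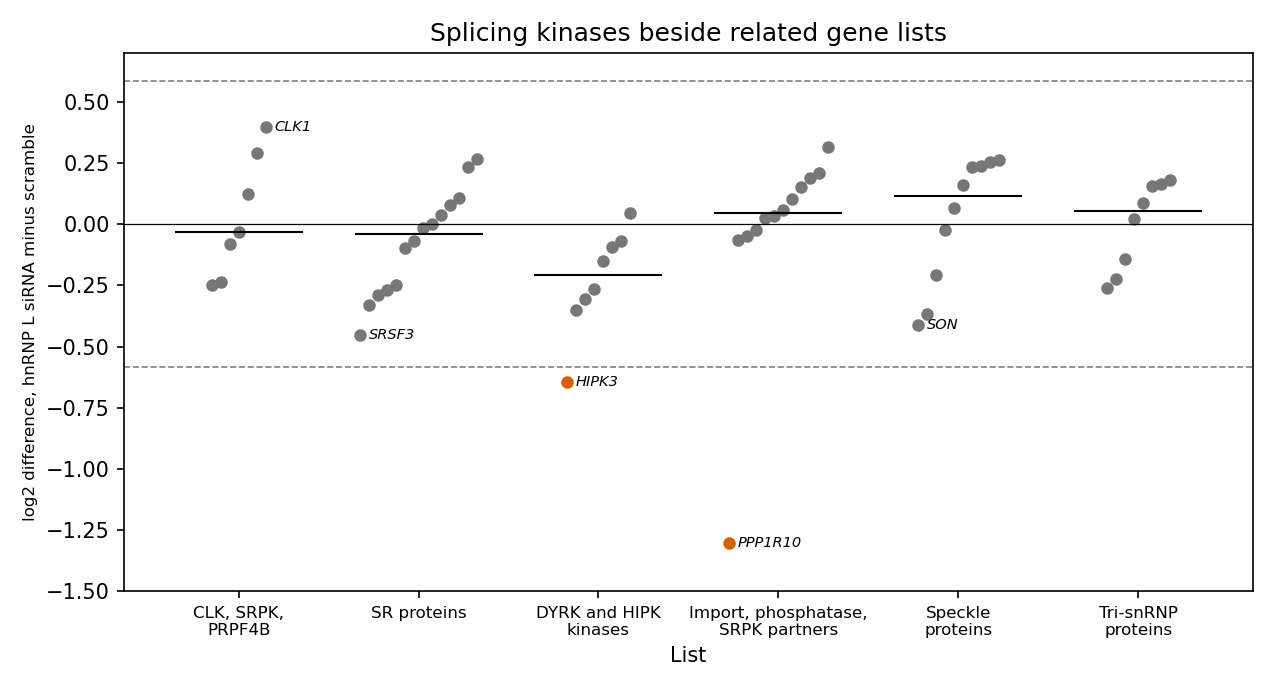
Log2 differences between hnRNP L siRNA and scramble for the splicing kinases and 5 lists of related genes, with 1 point per gene, called genes in orange, the median of each list as a bar and dashed lines at a fold change of 1.5. PPP1R10 (-1.30) and HIPK3 (-0.65) are the called genes, and no list holds a called gene above 0.

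These values are shares of each library's transcript pool, and in bulk RNA fewer cells that express a gene and less of its RNA per cell cannot be told apart. After hnRNP L siRNA the median log2 difference of all tested genes from scramble was -0.13 when mitochondrially encoded genes were left out, -0.0843 as deposited, 0.00175 after quantile normalization and 0.005 after median-ratio scaling. The CLK1 difference was positive under each of these, while the direction of the near-zero differences of CLK3, SRPK1 and PRPF4B turned with the scaling in some comparisons, as did those of CLK1, CLK3, SRPK1 and SRPK2 after SETD2 siRNA when mitochondrially encoded genes were left out.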

How the data were processed

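RNA-seq libraries of 293T cells were made after ribosomal depletion and polyA enrichment. Per the labels and methods, the authors aligned reads to hg38 with STAR 2.6.1c and quantified genes with RSEM 1.3.0; the deposited values used here are TPM, with no depth or counts, so the study's count-based test could not be run on them. Genes with a mean of at least 0.5 TPM over the 6 libraries were kept. Differences were tested with limma 3.58.1 (R 4.3.3) on log2(TPM + 0.5), with 1 mean per siRNA, all 3 groups in 1 fit and a variance trend, and the script was tested on simulated data. Called genes had a p of under 0.05 after Benjamini-Hochberg adjustment over all tested genes and differed by more than 1.5-fold. Values of a fold change are on the log2(TPM + 0.5) scale and understate changes of low genes. Positions, transcript classes and sequences came from GENCODE 44 on hg38, a later annotation than the one the values were made with. The kinases and lists were chosen with earlier results of these data known. The text names the 7 kinases, the siRNA targets, related copies, every called gene of a list, the 2 genes of each list with the largest difference in each comparison, and the 3 genes (mean of at least 5 TPM) most correlated with CLK1 and with SRPK1; SRSF7 and the ratios were added after their values were seen. Alternatives were the pseudocount, the filter, the scaling, the fit and leaving out each library. The chromatin immunoprecipitation samples were not analysed here.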

Additional observations from a re-analysis of the deposited data

How the results depend on the processing

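No kinase was called in any comparison under any alternative, except that 1 (CLK1) passed in hnRNP L siRNA against scramble with no fold change threshold. Of the alternative log2 differences of the kinases, 348 kept direction and call, 1 became called and 22 turned direction, and the cause was not tested. With median-ratio scaling CLK3 (0.020) and SRPK1 (0.069) turned in hnRNP L siRNA against scramble, and SRPK1 (0.0019) and PRPF4B (0.052) between the knockdowns, where quantile normalization also turned PRPF4B (0.068). Rescaling without mitochondrially encoded genes turned CLK1 (-0.052), CLK3 (-0.0048), SRPK1 (-0.023) and SRPK2 (-0.034) after SETD2 siRNA. With 1 library left out, log2 differences that turned after SETD2 siRNA were those of CLK1 (-0.029 to 0.12), CLK3 (-0.046 to 0.23), CLK4 (-0.17 to 0.17), SRPK1 (-0.097 to 0.25) and SRPK2 (-0.10 to 0.22). Those that turned after hnRNP L siRNA were CLK3 (-0.22 to 0.059) and SRPK1 (-0.24 to 0.18), and between the knockdowns SRPK1 (-0.32 to 0.11).

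Over all tested genes the calls numbered 5 with no filter to 60 with coding and lncRNA genes only for SETD2 siRNA, 85 with no filter to 1826 with no fold threshold for hnRNP L siRNA, and 65 to 1753 between the knockdowns. For hnRNP L siRNA against scramble 286 rose and 816 fell, and 429 and 518 did with median-ratio scaling. Same-numbered scramble and hnRNP L siRNA libraries did not deviate together (r = -0.126). With 2 libraries a group this rests on 1 difference in each, so it cannot show whether the numbers pair them. With the replicate block 715 genes and 0 kinases were called, and with the numbers crossed, chosen after seeing the data, 1406 and 0. No block was fitted for SETD2 siRNA, which shares only number 2 with either other group, so that 1 pair of libraries would carry the comparison.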
